A study of Rattus norvegicus with 9 samples.

Results

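The genes described here are 10 integrin genes of fibroblasts and cardiomyocytes, chosen by their symbols: Itga1, Itga5, Itga7, Itga8, Itga11, Itgav, Itgb1, Itgb3, Itgb5 and the integrin-like gene Itgbl1. They were chosen with earlier results of these data known. They are 10 of the 35843 genes in the expression table, and each symbol occurred in 1 entry only. RNA-seq had been performed on left ventricles of adult male Sprague-Dawley rats at day 28, with 3 rats in each of the groups Sham, MI and MI + DAPA (1st d), the last called DAPA below. In groups MI and DAPA the left anterior descending coronary artery had been tied, whereas group Sham had sham surgery. Rats of groups Sham and MI were gavaged with saline every day, and rats of group DAPA with dapagliflozin, an inhibitor of the sodium-glucose cotransporter SGLT2, at 1 mg/kg per day from the first day after surgery. The methods of the study give infarct border tissue, with the scar cut away, as the main material of its molecular work, and left ventricle as the source of this RNA, while its results section calls the sequenced tissue of groups MI and DAPA infarct myocardium. Whether these libraries held scar tissue is thus not settled by the sources used here. Each library label lists a pair of items for its rat, and what the pair stands for is not stated. The p-values below set differences between groups against the spread between these libraries.

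Integrins are receptors made of 1 alpha and 1 beta chain that span the cell membrane and tie the matrix outside to the actin cytoskeleton inside. The alpha chain largely sets which matrix protein is bound, such as collagen, laminin or the RGD motif of fibronectin and vitronectin. In the heart, cardiomyocytes hold on to their laminin-rich basement membrane through Itga7 with Itgb1, while fibroblasts use collagen and RGD receptors, and Itgav integrins can also release active TGF-beta from its latent complex.

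Expression was given as FPKM, fragments scaled by gene length and library size, a unit per length that allows levels of different genes to be compared. For genes above 0 in at least 4 libraries, the FPKM values were multiples of what 1 read is worth and could be turned back into reads; they summed to between 13597239 and 17210909 per rat. Mitochondrial genome transcripts took between 59.9% and 65.7% of these reads in Sham rats, between 6.93% and 18.7% in MI rats and between 17.1% and 31.6% in DAPA rats. Reads on all other genes were therefore fewest in group Sham, with at most 6858645, against at least 11519732 in the other rats, and values of the weakly expressed integrin genes were least precise there. MI replicate 2 stood apart from the other libraries of its group, with the lowest sum of cardiomyocyte markers and the highest sum of lymphocyte markers of all 9 rats. This is bulk tissue, so fewer cells of a type and less RNA per cell cannot be told apart, and no value tells which cells carried a transcript.

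**Figure D1:**
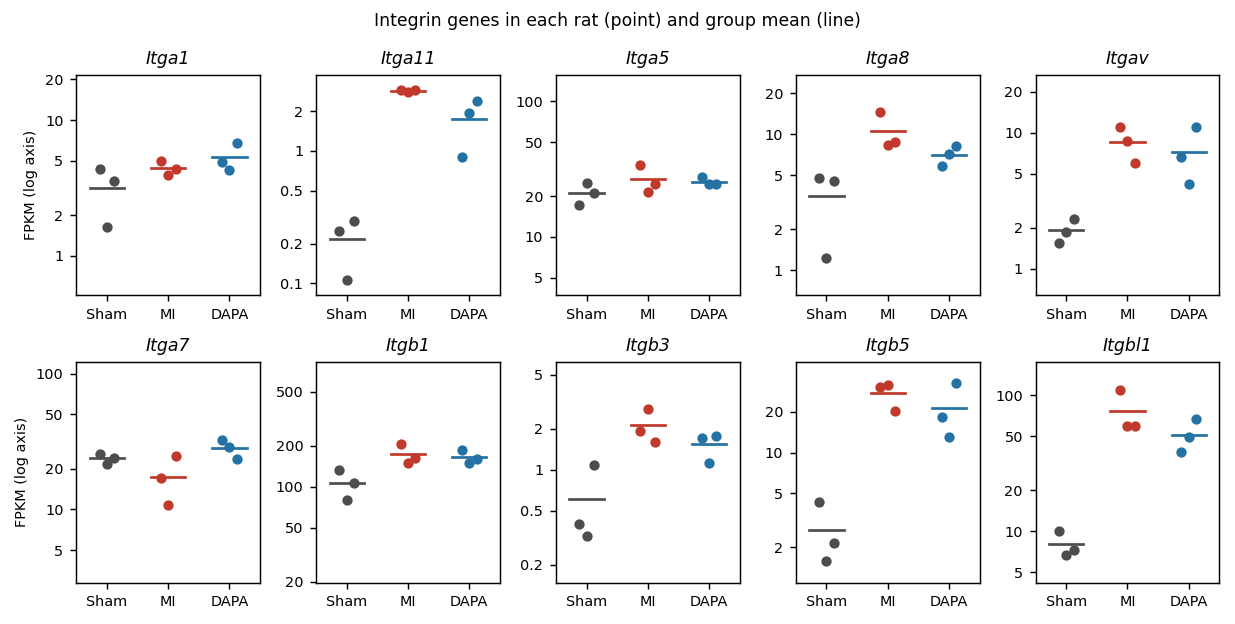
FPKM of the 10 integrin genes in the 3 rats of groups Sham, MI and DAPA, on a log axis whose range differs between panels; each point is 1 rat and each line the mean of a group. Itga11, Itgav, Itga8, Itgb1, Itgb3, Itgb5 and Itgbl1 lie higher in all 3 MI rats than in any Sham rat, while the groups overlap for Itga1, Itga5 and Itga7.

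In group Sham, the beta chain Itgb1 had the highest mean level, with 106 FPKM ± 26.7 (SD, n = 3). The laminin receptor chain Itga7 (23.7 FPKM ± 2.16) and the fibronectin receptor chain Itga5 (21.1 FPKM ± 4.05) came next, and their ranges over the rats overlapped. Itgbl1 followed with 7.998 FPKM ± 1.77 and overlapped no other gene of the set. Itga8, Itga1, Itgb5 and Itgav had means between 1.92 and 3.52 FPKM, and their ranges overlapped one another. Itgb3 (0.606 FPKM ± 0.423) and Itga11 (0.216 FPKM ± 0.0988) were lowest, without overlap, on 8 to 23 and 5 to 12 reads per rat.

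The order was different in group MI. Itgb1 was again first, with 173 FPKM ± 29.0 (SD, n = 3), and Itgbl1 was now the next with 76.2 FPKM ± 28.9. Itgb5 (27.4 FPKM ± 6.29), Itga5 (26.7 FPKM ± 6.63) and Itga7 (17.5 FPKM ± 6.89) followed with overlapping ranges. Itga8 and Itgav had means of 10.6 and 8.57 FPKM and ranges that overlapped each other and that of Itga7. Itga1 stood apart with 4.44 FPKM, and Itga11 and Itgb3 were last with 2.85 and 2.12 FPKM and ranges that overlapped. In group DAPA, Itgb1 (166 FPKM) and Itgbl1 (51.4 FPKM) led as well, and Itga7 (28.3 FPKM ± 4.62), Itga5 (25.6 FPKM ± 1.76) and Itgb5 (21.3 FPKM ± 9.99) came next with overlapping ranges.

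Infarction was compared with sham surgery to see which of these genes differed in the failing ventricle. The genes Itgbl1, Itgb5, Itgav, Itga11 and Itga8 rose after infarction, 5 of 10, and 0 of 10 fell, at a limma p under 0.05 without adjustment and a log2 fold change beyond 1 in size. Of the 13485 genes tested, 12.1% were called higher and 10.3% lower by the same rule. The median log2 fold change of the 10 genes was 1.20, against -0.01 over all genes tested. All 3 MI rats lay above all 3 Sham rats for 7 of the 10 genes, while 27.1% of all genes tested did so and 27.5% lay below. As the 10 genes were chosen with earlier results of these data known, their counts beside these shares are a description only. Because 1 was added to each FPKM before the logarithm, fold changes of weakly expressed genes come out too small. Itga11 had an FPKM of at least 1 in 0 Sham rats and Itgb3 in 1, so both entered the test through the MI rats. The count of 5 was the same without MI replicate 2.

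**Figure D2:**
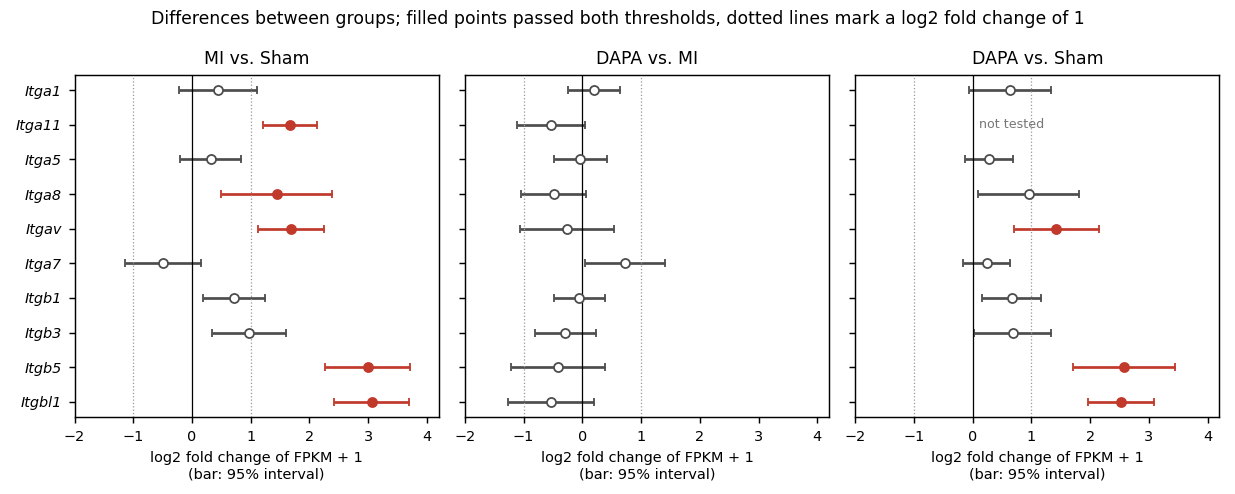
Log2 fold change of FPKM + 1 with its 95% interval for each integrin gene in the 3 comparisons between groups; filled points passed a limma p under 0.05 and a log2 fold change over 1 (dotted lines). In MI vs. Sham, 5 genes passed, in DAPA vs. MI 0 and in DAPA vs. Sham 3; Itga11 was not tested in the last because fewer than 3 rats reached 1 FPKM.

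Because these 5 genes rose together, the 150 bases before their RefSeq start sites are shown, read 5′ to 3′ on the strand of the gene from the rat assembly GRCr8. Capitals mark matches on either strand to the letters GGAATG bound by TEAD factors, TGANTCA bound by AP-1, CAGAC bound by SMAD proteins and GGGCGG bound by SP1, to the TATA box, searched as TATAAA, and to the SRF CArG box. The stretches lie at chr8:72041282-72041431 (plus strand) for Itga11, chr17:80410634-80410783 (minus strand) for Itga8, chr3:89245232-89245381 (plus strand) for Itgav, chr11:80449374-80449523 (minus strand) for Itgb5 and chr15:107186642-107186791 (plus strand) for Itgbl1.
Itga11: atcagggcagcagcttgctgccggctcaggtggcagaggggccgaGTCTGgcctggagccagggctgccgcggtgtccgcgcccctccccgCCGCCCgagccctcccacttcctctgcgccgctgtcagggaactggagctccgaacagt
Itga8: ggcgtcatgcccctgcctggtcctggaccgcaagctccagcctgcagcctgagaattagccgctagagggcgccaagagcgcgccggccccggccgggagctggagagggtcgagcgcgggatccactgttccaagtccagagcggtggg
Itgav: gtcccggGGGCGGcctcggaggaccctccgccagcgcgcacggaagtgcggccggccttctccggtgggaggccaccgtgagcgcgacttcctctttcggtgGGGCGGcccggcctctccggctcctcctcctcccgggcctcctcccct
Itgb5: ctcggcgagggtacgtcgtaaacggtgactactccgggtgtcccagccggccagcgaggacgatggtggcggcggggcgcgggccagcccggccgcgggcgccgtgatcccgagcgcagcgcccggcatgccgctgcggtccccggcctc
Itgbl1: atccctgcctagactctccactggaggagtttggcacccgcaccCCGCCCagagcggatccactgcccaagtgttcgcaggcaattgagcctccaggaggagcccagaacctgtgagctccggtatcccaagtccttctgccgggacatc

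Matches were counted in windows of 300 bases, from 250 before to 50 after the start, which the table held for 8 of the 10 genes and for 33469 genes in all; Itga7 and Itgb3 had no entry. The SP1 letters were in 3 of these 5 windows (Itga11, Itgav and Itgbl1) and in 33.1% of all windows. The SMAD letters were in 3 of 5 (Itga11, Itgav and Itgb5) and in 50.1% of all windows. TEAD, AP-1, TATA box and CArG box letters were in 0 of 5, against 14.2%, 7.33%, 14.2% and 1.64% of all windows. Of Itga1, Itga5 and Itgb1, which were not called, 3 of 3 held the SMAD letters, 2 the SP1 letters and 1, Itgb1, the TEAD letters. No match overlapped one of another motif. A match is a string of letters in the window and was not tested as a binding site.

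Dapagliflozin was compared with no drug among the infarcted rats to see whether the drug moved these genes. In DAPA vs. MI, 0 of 10 genes were called in either direction, and among the 13251 genes tested 0.951% were called higher and 1.11% lower. Without the fold threshold 1 of 10 genes passed, Itga7, which was higher in group DAPA (limma adjusted p = 0.558). With limma voom on the recovered reads 0 were called as well, and Itga7 (higher) and Itga11 (lower) had an unadjusted p under 0.05. Both had a voom adjusted p of 0.573. Over all genes voom called 193 higher and 174 lower. Leaving out MI replicate 2, limma gave 0 members higher and 1 lower, Itga8, at an unadjusted p under 0.05. The share of all genes passing at p alone is not given here, so these counts have no background beside them. The median log2 fold change of the 10 genes was -0.27, against -0.02 over all genes tested, and 2 of the 10 had a positive sign. All 3 DAPA rats lay below all 3 MI rats for 2 genes, Itga11 and Itga8, and above them for 0. Over all genes tested 7.16% lay below and 6.63% above. For Itga8 the closest rats of the groups had 8.17 and 8.34 FPKM, and their order depended on the scaling, as given below. A p that misses the threshold does not show that the groups were alike, and the 95% intervals in the plot of fold changes give the range of differences that the 3 rats per group allow.

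Rats given dapagliflozin were also compared with sham rats. Of the 9 genes tested in DAPA vs. Sham, 3 were called higher (Itgbl1, Itgb5 and Itgav) and 0 lower; of the 13359 genes tested 9.54% were higher and 8.16% lower. The ranges did not overlap for 6 of these 9 genes, all higher in group DAPA, whereas 23.2% of all genes tested lay above and 23.3% below. Itgb3, 1 of the 6, had an FPKM of at least 1 in 1 Sham rat, so it entered DAPA vs. Sham through the DAPA rats. Its highest Sham rat had 1.09 FPKM and its lowest DAPA rat 1.12. This comparison shares its rats with both others, so its values are given only side by side with them. The median log2 fold change of the 9 genes was 0.68, against 0.01 over all genes tested.

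Itga11 (ENSRNOG00000006723) encodes the alpha chain of a receptor for fibrillar collagen that is known from fibroblasts. Its FPKM was 0.248, 0.105 and 0.295 in the Sham rats, 2.87, 2.78 and 2.90 in the MI rats and 0.892, 1.94 and 2.39 in the DAPA rats. The MI rats were nearly equal, all Sham rats lay far below them, and the DAPA rats spread over the space between without touching either group. Group MI had 13.2 times the mean FPKM of group Sham, and the log2 fold change was 1.67 (SE 0.19, limma adjusted p = 0.00156). Dapagliflozin-treated rats differed from MI rats by -0.53 on the log2 scale (95% interval -1.11 to 0.04, limma adjusted p = 0.558). It was not tested in DAPA vs. Sham under the filter on low values; with no filter the log2 fold change there was 1.13 (SE 0.26, limma adjusted p = 0.0382).

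Itga1 (ENSRNOG00000053550) encodes the alpha chain of a receptor for collagen and laminin that many stromal and endothelial cells carry. The Sham rats had 4.35, 1.63 and 3.54 FPKM, the MI rats 5.04, 3.96 and 4.33, and the DAPA rats 4.90, 4.27 and 6.77. Sham replicate 2 was the lowest of all rats, and the 3 groups overlapped. In MI vs. Sham the log2 fold change was 0.44 (95% interval -0.22 to 1.10, limma adjusted p = 0.253), and in DAPA vs. MI 0.20 (95% interval -0.24 to 0.64, limma adjusted p = 0.704).

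Among the RGD receptor chains, Itgav (ENSRNOG00000004912) encodes the alpha V chain, which pairs with several beta chains and binds vitronectin, fibronectin and latent TGF-beta. Its FPKM was 1.55, 1.88 and 2.33 in the Sham rats, 11.0, 8.70 and 5.99 in the MI rats and 6.61, 4.21 and 11.0 in the DAPA rats. Both infarcted groups lay above every Sham rat and overlapped each other. Group MI had 4.46 times the mean of group Sham, with a log2 fold change of 1.69 (SE 0.24, limma adjusted p = 0.00271), and DAPA vs. Sham gave 1.43 (SE 0.31, limma adjusted p = 0.0146). The difference between DAPA and MI was -0.26 (95% interval -1.06 to 0.54, limma adjusted p = 0.777).

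Itga8 (ENSRNOG00000016538) encodes a chain that pairs with Itgb1 and binds nephronectin, fibronectin and vitronectin. Sham rats had 4.78, 1.23 and 4.56 FPKM, MI rats 14.6, 8.34 and 8.77, and DAPA rats 5.90, 7.15 and 8.17. As deposited, the groups did not overlap, with the DAPA rats between the others. The highest DAPA rat (8.17 FPKM) was close to the lowest MI rat (8.34 FPKM). Scaling outside the mitochondrial genome multiplied DAPA replicate 3 by 1.11 and MI replicate 2 by 0.976, which makes groups DAPA and MI overlap. In MI vs. Sham the mean FPKM was 3.00 times as high and the log2 fold change was 1.44 (SE 0.40, limma adjusted p = 0.0285). Without Sham replicate 2 that log2 fold change was 0.99, just under the threshold of 1, so the call rested on this rat. The log2 fold change was -0.49 in DAPA vs. MI (95% interval -1.04 to 0.06, limma adjusted p = 0.558). Without MI replicate 2 it was -0.62 (limma adjusted p = 0.983, unadjusted p under 0.05). In DAPA vs. Sham the log2 fold change was 0.95 (SE 0.37, limma adjusted p = 0.0936).

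Itga5 (ENSRNOG00000057451) encodes the alpha chain of the classical fibronectin receptor. It showed 17.1, 25.2 and 21.0 FPKM in the Sham rats, 34.1, 21.3 and 24.7 in the MI rats and 27.6, 24.7 and 24.4 in the DAPA rats. MI replicate 1 was the highest library, and all groups overlapped. The log2 fold change was 0.32 in MI vs. Sham (95% interval -0.20 to 0.84, limma adjusted p = 0.286) and -0.04 in DAPA vs. MI (95% interval -0.49 to 0.41, limma adjusted p = 0.951).

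Itga7 (ENSRNOG00000007905) encodes the chief laminin-binding alpha chain of adult striated muscle. Sham rats had 25.7, 21.4 and 24.1 FPKM, MI rats 17.0, 10.8 and 24.6, and DAPA rats 32.6, 29.0 and 23.4. It was the 1 gene of the 10 with a lower mean in MI rats than in Sham rats, but MI replicate 3 lay among the Sham rats. The log2 fold change in MI vs. Sham was -0.49 (95% interval -1.14 to 0.16, limma adjusted p = 0.198), and its sign turned to 0.99 when libraries were rescaled to the summed FPKM of all genes. Between DAPA and MI rats it was 0.73 (95% interval 0.04 to 1.41, limma adjusted p = 0.558), under the fold threshold, and 1 MI rat overlapped the DAPA rats. Without MI replicate 2, the lowest library, the log2 fold change was 0.44 (limma adjusted p = 0.983), and it did not pass an unadjusted p of 0.05. The cardiomyocyte markers summed to 8516, 3048 and 15711 FPKM in MI replicates 1 to 3 and to 22609, 26223 and 12413 in the DAPA rats. MI replicate 2 and DAPA replicate 3 were thus the lowest rats of their groups in both measures. The orders differed elsewhere: the sums were 9533, 11791 and 13658 FPKM in Sham replicates 1 to 3, and replicate 1 had the most Itga7. DAPA replicate 2 had the highest sum but less Itga7 than DAPA replicate 1. The part of the cardiomyocyte content in the Itga7 difference was not tested.

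The beta chain Itgb1 (ENSRNOG00000010966) is the common partner of most alpha chains, Itga1, Itga5, Itga7, Itga8 and Itga11 among them. Its FPKM was 133, 79.3 and 107 in the Sham rats, 206, 151 and 162 in the MI rats and 186, 150 and 161 in the DAPA rats. Every infarcted rat lay above every Sham rat, and groups MI and DAPA overlapped. The log2 fold change was 0.71 in MI vs. Sham (SE 0.22, limma adjusted p = 0.0411) and 0.66 in DAPA vs. Sham (SE 0.22, limma adjusted p = 0.0556), both under the fold threshold. Between DAPA and MI rats it was -0.05, with a 95% interval from -0.49 to 0.39 and a limma adjusted p of 0.931.

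Itgb5 (ENSRNOG00000001795) encodes a partner of Itgav in a vitronectin receptor. Sham rats had 4.30, 1.58 and 2.16 FPKM, MI rats 30.6, 31.4 and 20.1, and DAPA rats 18.4, 13.1 and 32.4. The lowest infarcted rat still lay far above the highest Sham rat, and the DAPA rats spread below and above the MI rats. Mean FPKM was 10.2 times as high in MI rats as in Sham rats, with a log2 fold change of 2.99 (SE 0.30, limma adjusted p = 0.00123), and 7.95 times as high in DAPA rats, with 2.57 (SE 0.37, limma adjusted p = 0.00402). DAPA vs. MI gave a log2 fold change of -0.41 (95% interval -1.21 to 0.38, limma adjusted p = 0.659).

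Itgb3 (ENSRNOG00000048449) encodes the other main partner of Itgav, and on platelets the partner of Itga2b. The Sham rats had 0.400, 0.326 and 1.09 FPKM, the MI rats 1.93, 2.82 and 1.61 and the DAPA rats 1.72, 1.12 and 1.78. Sham replicate 3 was close to the lowest DAPA rat, and the infarcted groups overlapped. In MI vs. Sham the log2 fold change was 0.97 (SE 0.27, limma adjusted p = 0.0276), just under the fold threshold on this scale. With a pseudocount of 0.1 it was 1.77 and with limma voom on the recovered reads 1.95, both past the threshold. DAPA vs. MI gave -0.29 (95% interval -0.81 to 0.23, limma adjusted p = 0.642).

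Itgbl1 (ENSRNOG00000004516) encodes a secreted protein whose repeats resemble the stalk of a beta chain, and which is not a chain of a receptor. Its FPKM was 10.02, 6.73 and 7.25 in the Sham rats, 110, 59.4 and 59.6 in the MI rats and 38.0, 49.3 and 67.0 in the DAPA rats. All infarcted rats lay above the Sham rats, and the highest DAPA rat lay within the range of group MI. Mean FPKM was 9.53 times as high in MI rats as in Sham rats, with a log2 fold change of 3.06 (SE 0.27, limma adjusted p = 0.000984), and 6.43 times as high in DAPA rats, with 2.52 (SE 0.24, limma adjusted p = 0.00159). The log2 fold change in DAPA vs. MI was -0.53 (95% interval -1.26 to 0.20, limma adjusted p = 0.588).

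Shares within a library do not depend on how libraries were scaled against each other, but they do depend on which chains are summed. Other alpha chains were left out here, among them Itga6, whose FPKM, given below, exceeded that of Itga7 in every Sham rat. Itga6 was lower in MI rats, so counting it would reduce the Itga7 share more in Sham rats than in MI rats. The shares hold only among the chains summed. Of the summed FPKM of the 6 alpha chains, Itga7 made up 44.2% ± 3.25 in Sham rats, 24.6% ± 8.53 in MI rats and 37.7% ± 5.99 in DAPA rats (SD, n = 3 each). By rat, its share was 47.9%, 41.6% and 43.1% in Sham rats, 20.1%, 19.3% and 34.5% in MI rats and 41.5%, 40.7% and 30.8% in DAPA rats. No MI rat reached the lowest Sham rat, and MI replicate 3 lay above DAPA replicate 3. The sums were 53.7, 51.4 and 55.8 FPKM in Sham rats, 84.7, 55.9 and 71.3 in MI rats and 78.5, 71.3 and 76.1 in DAPA rats. A share also falls when other chains rise, and the FPKM of Itga7 itself overlapped between Sham and MI rats. Itgav had a mean share of 3.57% ± 0.646 in Sham rats and 12.3% ± 3.63 in MI rats, Itga8 of 6.48% ± 3.56 and 14.8% ± 2.48, and Itga11 of 0.399% ± 0.171 and 4.15% ± 0.797, without overlap between these groups. In group DAPA these 3 chains held 9.57% ± 4.36, 9.43% ± 1.69 and 2.34% ± 1.06. Itga5 held 39.5% ± 8.71, 37.7% ± 2.83 and 34.0% ± 1.66 in groups Sham, MI and DAPA, with overlapping ranges.

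Of the summed FPKM of the 3 beta chains, Itgb1 held 97.1% ± 0.541 in Sham rats, 85.3% ± 3.44 in MI rats and 88.0% ± 4.83 in DAPA rats (SD, n = 3 each). Itgb5 held 2.35% ± 0.679, 13.6% ± 3.08 and 11.2% ± 4.73 in the same order, and Itgb3 at most 1.52% in any rat. Each infarcted rat had a higher Itgb5 share than each Sham rat. The sums of the beta chains ranged from 81.2 to 137 FPKM in Sham rats and from 183 to 238 in MI rats. The Itgb1 share was thus lower in MI rats although its FPKM was higher there.

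**Figure D3:**
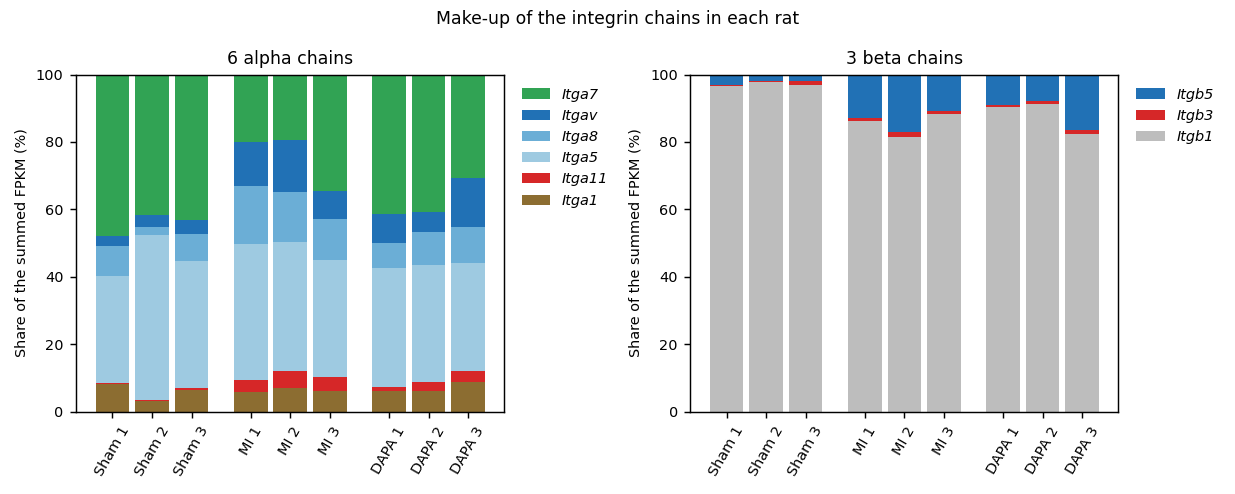
Share (%) of each chain in the summed FPKM of the 6 alpha chains (left) and of the 3 beta chains (right), 1 bar per rat. Among these 6 alpha chains, Itga7 takes at least 41.6% in the Sham rats and at most 34.5% in the MI rats. Among these 3 beta chains, Itgb5 takes at most 3.13% in the Sham rats and at least 7.96% in the others. Other chains, Itga6 among them, are left out of the sums.

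For 4 pairs of genes the log2 ratio of FPKM within a rat was compared by a two-sided exact permutation test over rats, whose smallest p with 3 rats against 3 is 0.1. The log2 ratio of the fibroblast collagen receptor chain Itga11 to the muscle laminin receptor chain Itga7 was -6.69, -7.67 and -6.35 in the Sham rats, -2.57, -1.96 and -3.08 in the MI rats and -5.19, -3.90 and -3.29 in the DAPA rats. The groups did not overlap. The mean was 4.37 higher in MI rats than in Sham rats (exact permutation p = 0.1) and 1.59 lower in DAPA rats than in MI rats (exact permutation p = 0.1), both at the smallest p the design allows. The latter difference was -1.30 without MI replicate 2 and -1.06 without DAPA replicate 1. The Sham ratios rested on 5 to 12 Itga11 reads per rat, so the size of the difference between MI and Sham rats is uncertain. With a pseudocount of 1 on each FPKM it was 2.16, and that between DAPA and MI rats -1.26.

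The log2 ratio of Itgb5 to Itgb1, -5.41 on average in group Sham and -2.67 in group MI, differed by 2.73 without overlap (exact permutation p = 0.1), and its mean in group DAPA was -3.06 (DAPA vs. MI, exact permutation p = 0.4). That of Itga5 to Itga7 was -0.18, 0.67 and -0.14 in groups Sham, MI and DAPA, with overlapping rats and an exact permutation p of 0.2 in both comparisons. That of Itgb3 to Itgb1 was -7.64, -6.37 and -6.77, again with overlap (exact permutation p = 0.3 for MI vs. Sham and p = 0.4 for DAPA vs. MI). None of the 8 comparisons of ratios could pass a threshold of 0.05.

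**Figure D4:**
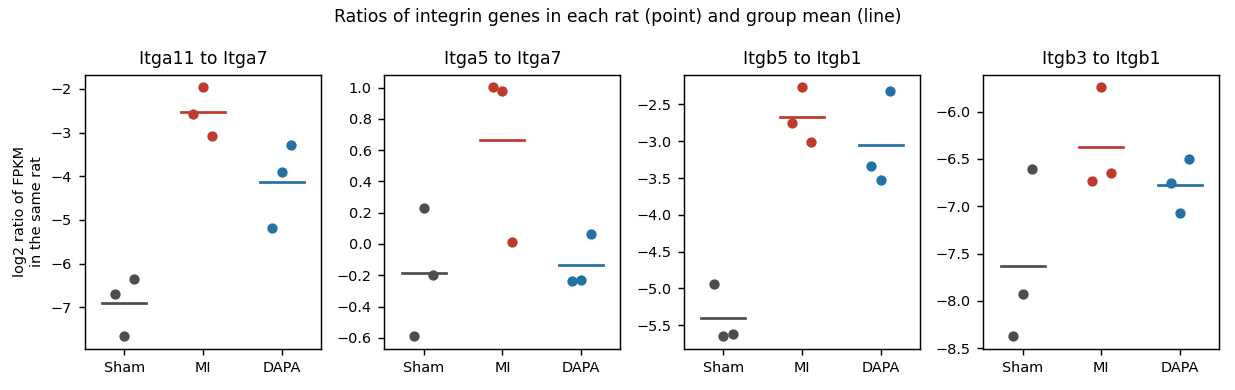
Log2 ratio of the FPKM of 2 genes in the same rat for 4 pairs of integrin genes in groups Sham, MI and DAPA; points are rats, lines are group means, and the axis range differs between panels. The rats of the 3 groups lie apart for Itga11 to Itga7, with DAPA between Sham and MI, while DAPA and MI overlap for the other 3 ratios.

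The other chains of tissue cells gave mixed values. Over all genes tested, the shares called were 12.1% higher and 10.3% lower in MI vs. Sham, and 0.951% and 1.11% in DAPA vs. MI. These shares belong beside the counts of every list below. Of 9 such genes 5 were tested in MI vs. Sham, and 1 was higher, Itga9, a chain that binds tenascin and VCAM-1 (log2 fold change 1.95, SE 0.22, limma adjusted p = 0.0015). Lower was Itga6, a laminin receptor chain found on endothelium among other cells, with 53.9, 44.2 and 68.8 FPKM in the Sham rats and 13.9, 14.8 and 16.6 in the MI rats (log2 fold change -1.79, SE 0.19, limma adjusted p = 0.0013). The log2 fold changes of Itga3 (-0.65) and Itgb4 (0.68) were not called. Endothelial markers moved with Itga6: they summed to between 609 and 1037 FPKM in Sham rats and between 315 and 475 in MI rats, 4 of 7 tested were lower and 0 higher, and their part in that difference was not tested.

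Among 7 chains of leukocytes and platelets that were tested, 4 were higher in MI vs. Sham and 0 lower, against 12.1% and 10.3% of all genes tested. The higher ones were Itgb2 (2.32), the common beta chain of leukocytes, Itgal (1.85), Itgad (1.72) and Itgb7 (1.41, all log2 fold changes). The 7 chains summed to 71.6 FPKM in MI replicate 2 and to 29.3 and 36.1 in the other MI rats. Without MI replicate 2, 3 were called higher, with a median of 0.99 against 1.41. Macrophage markers were higher in 8 of 8 cases, with a median log2 fold change of 2.62. For the Itgb3 result, the platelet marker Pf4 had a log2 fold change of 0.60 in MI vs. Sham (limma adjusted p = 0.097, unadjusted p under 0.05). All its MI rats lay above all its Sham rats. Without MI replicate 2 its log2 fold change was 0.40 and did not pass that unadjusted p. The other 5 platelet markers were at 0 in at least 1 rat, and Itga2b had 2.86 FPKM in group Sham and 1.73 in group MI. The part of platelets and macrophages in the Itgb3 and Itgav values was not tested.

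Matrix ligands of these receptors rose in MI vs. Sham in 12 of 22 tested genes and 1 fell, against 12.1% and 10.3% of all genes tested. The list's median log2 fold change was 1.59. Col1a1, a chain of collagen I, had 49.0, 13.7 and 14.3 FPKM in the Sham rats, 1012, 1393 and 650 in the MI rats and 312, 441 and 602 in the DAPA rats, without overlap between the groups. Its log2 fold change was 5.44 in MI vs. Sham (SE 0.51, limma adjusted p = 0.0010) and -1.15 in DAPA vs. MI (SE 0.37, limma adjusted p = 0.558). Col1a2 (4.60), Col3a1 (4.53) and the laminin chain Lamc1 (1.81) were the next by p in MI vs. Sham. In the drug comparison, DAPA vs. MI, 2 of 22 ligands were lower, Col1a1 and Ccn3, a matricellular protein named here after its values were seen (log2 fold change -1.37), and 0 were higher. Without MI replicate 2 limma called 0 of 22 in this comparison, with 1 higher and 1 lower at an unadjusted p under 0.05.

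Genes of the adhesion complex inside the cell did not move one way. Of 29 tested, 6 were higher and 2 lower in MI vs. Sham, against 12.1% and 10.3% of all genes tested. The median log2 fold change was -0.04. Tns3, a tensin of focal adhesions, rose by 2.01, Fermt3, the kindlin of blood cells, by 1.60, and Flnc, the filamin of striated muscle, by 1.58, all on the log2 scale. Fermt2, the kindlin of most other tissues and an activator of integrins, fell by 1.38 on the log2 scale (SE 0.15, limma adjusted p = 0.0013), from 114, 104 and 123 FPKM in the Sham rats to 47.9, 37.9 and 43.7 in the MI rats. Of the 29, limma called 0 in DAPA vs. MI, with 1 at an unadjusted p under 0.05, and voom on the recovered reads also 0.

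The dystrophin-glycoprotein complex is the other laminin link of cardiomyocytes beside Itga7. Of its genes, 10 were tested in MI vs. Sham, and 2 were higher and 1 lower, against 12.1% and 10.3% of all genes tested. The median log2 fold change was 0.17. Sspn, which encodes sarcospan, rose by 1.72 on the log2 scale, while Dag1, the dystroglycan gene, had a log2 fold change of 0.84 and was not called. The lower gene was the sarcoglycan Sgca (-1.34, limma adjusted p = 0.058), named after its values were seen. Without MI replicate 2, limma called 2 higher and 0 lower, with 2 lower at an unadjusted p under 0.05, and the median was 0.58. With dapagliflozin, limma called 0 of 11 in DAPA vs. MI, 0 at an unadjusted p under 0.05 alone and 1 with voom on the recovered reads, with a median of 0.32, and of 0.19 without MI replicate 2.

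**Figure D5:**
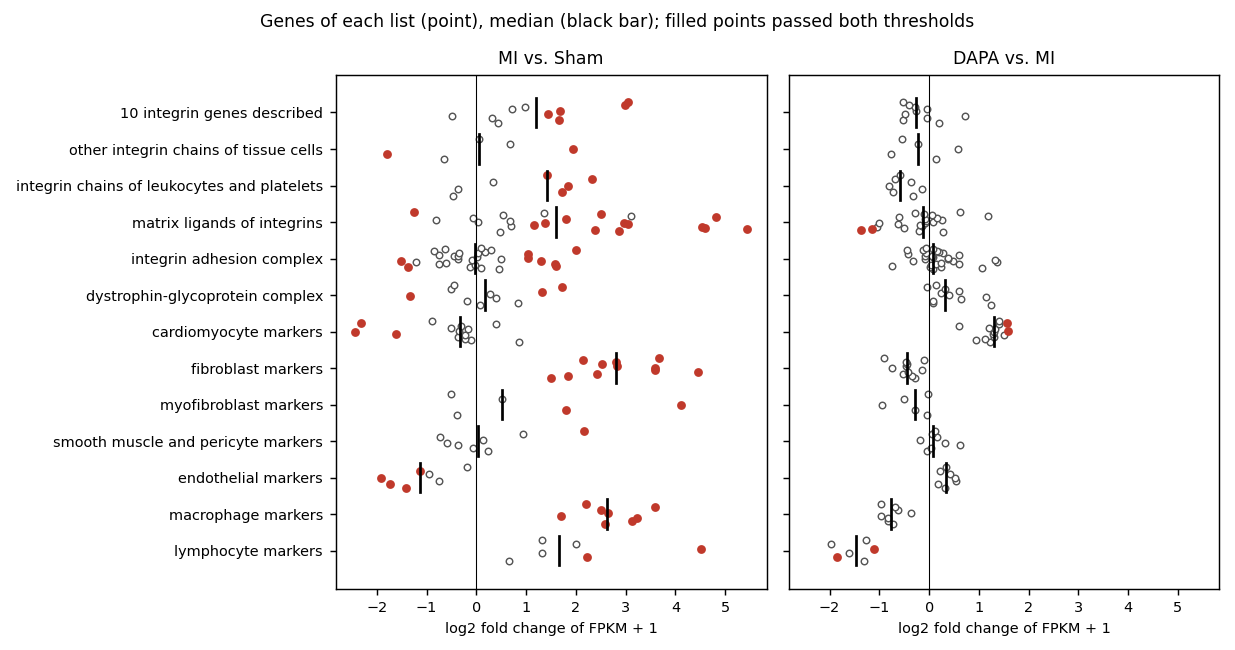
Log2 fold changes of FPKM + 1 of the tested genes of 13 lists in MI vs. Sham (left) and DAPA vs. MI (right); each point is a gene, filled points passed both thresholds, and black bars are medians. In MI vs. Sham the fibroblast (median 2.81) and macrophage markers (2.62) lie to the right like the integrin genes that rose, and the endothelial markers (-1.14) to the left.

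Markers of the cells that could carry these integrins differed between the groups as well. Beside the counts below, 12.1% of all genes tested were called higher and 10.3% lower in MI vs. Sham. Fibroblast markers were higher in MI vs. Sham in 11 of 11 tested genes, with Gas1 (log2 fold change 4.46), Thy1 (3.67), Pdgfra (2.81) and Pcolce (2.52) first by p. Their summed level ranged from 449 to 661 FPKM in Sham rats, from 1931 to 3128 in MI rats and from 1729 to 2323 in DAPA rats. Of the cardiomyocyte markers 3 of 14 were lower (Myh6, Tnni3 and Mybpc3) and 0 higher, with sums from 9533 to 13658 FPKM in Sham rats and from 3048 to 15711 in MI rats. The median of this list was -0.33, and without MI replicate 2 it was 0.22, with 2 markers higher and 2 lower; this alternative was chosen after seeing the data. All 3 groups thus held cardiomyocyte RNA in every rat. Of 5 myofibroblast markers tested, Cthrc1 (4.12) and Ckap4 (1.80) were higher and 0 lower, 3 had a positive sign, and Tagln, Fap and Acta2 (-0.39) were not called. At an unadjusted p under 0.05 alone, limma gave 3 higher and 0 lower. Cthrc1 was at 0 in at least 1 rat. The median of the tested markers was 0.51, and the sums of the list overlapped, with 272 to 1224 FPKM in Sham rats and 473 to 674 in MI rats. Among smooth muscle and pericyte markers 1 of 8 was higher, Rgs5 (2.17). The part of these cell types in the integrin differences was not tested.

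In DAPA vs. MI, 14 of 14 cardiomyocyte markers had a positive log2 fold change, with a median of 1.31 against -0.02 over all genes tested, and 2 were called higher, Tnni3 (1.56) and Myl2 (1.59, named after its values were seen). Without MI replicate 2 the median was 0.71 and limma called 0 of 14, with 1 at an unadjusted p under 0.05. The 11 fibroblast markers had negative signs, with a median of -0.45, and limma called 0, with 1 lower at an unadjusted p under 0.05 and 0 called with voom. The 8 macrophage markers had a median of -0.78, and limma called 0, with 2 lower at an unadjusted p under 0.05 and 2 called lower with voom; the median was -0.45 without MI replicate 2. Finally, 2 of 6 lymphocyte markers, Cd3e (-1.85) and Cd4 (-1.10), were lower, and 1 of 6 without MI replicate 2. Lymphocyte markers summed to 288 FPKM in MI replicate 2 and to at most 90.8 in any other rat. By the same limma rule, 0.951% of all genes tested were called higher and 1.11% lower in DAPA vs. MI.

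The genes most like 3 of the integrin genes over the 9 rats were named by Pearson r of log2(FPKM + 1) among 13079 genes, as a description; the 9 rats form 3 groups, and r does not separate differences between groups from spread within them. Closest to Itga11 were Apba1 (r = 0.994), Bmf (0.983), Olfml1 (0.983), Nid1 (0.977), which encodes the basement membrane linker nidogen, and Capn6 (0.976). Closest to Itgbl1 were Ltbp3 (0.997), which binds latent TGF-beta, Itga9 (0.994), the fibroblast marker Pdgfra (0.994), C1qtnf5 (0.993) and Tgfb3 (0.991). Closest to Itga7 were Frmd5 (0.981), Lmcd1 (0.975), Ctnna1 (0.969), the cardiac troponin gene Tnnt2 (0.966) and Ndufa8 (0.962), a subunit of respiratory complex I. Mean Tnnt2 was 2282 FPKM in Sham rats, 1495 in MI rats and 3438 in DAPA rats, the same order as Itga7.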

How the data were processed

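Poly-A RNA from left ventricles of 3 rats each of groups Sham, MI and DAPA was sequenced by the authors as paired ends on Illumina instruments. The deposited FPKM values had been divided by gene length and a library denominator by the authors; the submitters' processing notes name HISAT2 2.0.5, StringTie 1.3.3b, featureCounts 1.5.0-p3 and DESeq2, without roles, and the genome build is not given in the sources used here. Columns were assigned to rats by name, and 0 columns were left out. Whole reads, within 0.01 reads, were recovered from the steps of the FPKM values for 18896 of the 18896 genes above 0 in at least 4 libraries; 4359 other genes were not recovered. The denominator was 0.512 to 0.619 times the recovered reads in group Sham, 1.19 to 1.30 times in group MI and 0.954 to 1.24 times in group DAPA, so a scaling between libraries was already contained in the values. The reads carried no molecular identifiers. FPKM per gene cannot separate isoforms, and whether strand was used in counting is not given in the sources used here.

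limma 3.58.1 in R 4.3.3 (empirical Bayes with trend) was fitted to log2(FPKM + 1) for the 2 groups of a comparison, over every gene that reached 1 FPKM in 3 or more of the 6 rats. Genes were called at a p under 0.05 before adjustment and a log2 fold change beyond 1 in size, the thresholds the study's methods give for DESeq2, which needs counts and was not used; Benjamini-Hochberg adjusted p-values cover all genes tested. Two-sided exact permutation tests over rats served for ratios within a rat. The scripts were tested on simulated data. Alternatives were no filter on low values, a pseudocount of 0.1, all 9 rats in 1 fit, a replicate block, 3 other scalings, limma voom on the recovered reads, adjusted p-values, no fold threshold and each rat left out in turn.

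The 10 genes and all lists were chosen with earlier results of these data known. Named from each list were at most 4 genes with the smallest limma p in MI vs. Sham, and for Itga11, Itgbl1 and Itga7 the 5 genes with the highest Pearson r. Other genes are said to be chosen after their values were seen. Exceptions without that remark are Itga2b and the myofibroblast markers, of which all tested ones are named. Some genes that this rule names are not reported here. Of the listed genes, Itgam, Ttn, Mfap4, Pecam1 and Cd79a were not found under these names and are not analysed here, and Ccn1, Ccn2 and Ccn3 were matched through older symbols in RefSeq. Promoter sequences came from RefSeq (GRCr8). Python 3.11.15 with numpy 2.4.6, pandas 2.3.3, scipy 1.17.1 and matplotlib 3.10.9 was used.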

Additional observations from a re-analysis of the deposited data

How the results depend on the processing

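Rescaling libraries to the summed FPKM of all genes, which the mitochondrial genes dominate, moved the median of all genes by over 0.1: it was 1.27 in MI vs. Sham, -0.34 in DAPA vs. MI and 0.96 in DAPA vs. Sham, against -0.01, -0.02 and 0.01 as deposited. Under that scaling 9 members were higher in MI vs. Sham and 9 in DAPA vs. Sham, Itga7 in MI vs. Sham turned to 0.99 and Itga1 in DAPA vs. MI to -0.10, and over all genes 8575 were called higher and 199 lower in MI vs. Sham, against 1634 and 1390 as deposited. In DAPA vs. MI the split was 44 to 459 against 126 to 147 and in DAPA vs. Sham 6283 to 152 against 1274 to 1090. Relative to the median of all genes, 9 of 10 members lay above it in MI vs. Sham, 2 of 10 in DAPA vs. MI and 9 of 9 in DAPA vs. Sham, as deposited, under all 3 other scalings and with voom. Scaling outside the mitochondrial genome gave 104 higher and 186 lower genes in DAPA vs. MI.

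Without the fold threshold 1 member was higher in DAPA vs. MI and 6 in DAPA vs. Sham, and voom on the recovered reads called 5 in DAPA vs. Sham. Over all genes voom called 1592 higher and 1424 lower in DAPA vs. Sham, against 1274 and 1090 in the main fit. For the counts at p alone, the share over all genes is not given here. With a pseudocount of 1 on each FPKM, the log2 ratio differences in MI vs. Sham were 2.16 for Itga11 to Itga7, 0.26 for Itgb3 to Itgb1 and 2.27 for Itgb5 to Itgb1. With each rat left out in turn, members higher in MI vs. Sham numbered 4 to 6, in DAPA vs. MI 0, and in DAPA vs. Sham 3 to 4. In DAPA vs. MI, leaving out a rat gave log2 fold changes of -0.18 to 0.15 for Itga5, -0.57 to 0.0297 for Itgav and -0.14 to 0.0806 for Itgb1, which changed sign without MI replicate 1 (Itga5 and Itgb1) or DAPA replicate 2 (Itgav and Itgb1). The causes of these changes were not tested beyond what each alternative changes by construction.

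Rats with the same replicate number did not deviate together on average. The mean correlation of their deviations was -0.02 over 9 pairs (-0.30 to 0.19), against 0.01 over 18 pairs with different numbers (-0.23 to 0.32). With 3 rats per group this check showed no sign of pairing but cannot exclude it. With the replicate block 5 members were higher in MI vs. Sham, 0 in DAPA vs. MI and 3 in DAPA vs. Sham, as without it. Depth limited Itga11 and Itgb3 most, with 5 to 23 reads per Sham rat.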
